A study of Homo sapiens with 24 samples.

Results

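The ubiquitin-specific proteases (USPs) were followed here at the transcript level in HepG2 cells, an established human hepatoma line, through treatment with the proteasome inhibitor bortezomib and drugs that act on the eIF2α branch of the stress response. Members were taken by name alone, as every gene in the count table whose symbol is USP followed by a digit, with 6 antisense names and USPL1 left out. This gave 48 of the 18915 genes in the table, and 45 of them were among the 12685 genes tested after the filter on low counts. The name rule brought in USP6NL, a GTPase-activating protein for Rab proteins that is not a deubiquitinase, and USP39, a spliceosome component that lacks the catalytic residues.

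The 6 groups of 4 libraries each came from the same line, and all cultures received the same medium change and were harvested after 10 h. Cells received DMSO as vehicle, bortezomib at 50 nM, nelfinavir at 20 µM, ISRIB at 50 nM, or bortezomib together with nelfinavir or with ISRIB at those doses. Bortezomib blocks the proteasome's chymotrypsin-like site, nelfinavir is an HIV protease inhibitor that the study used to raise phosphorylated eIF2α, and ISRIB makes cells insensitive to that phosphorylation. RNA was read by 3′ tag sequencing (QuantSeq FWD), so a read count follows the number of transcripts and does not scale with their length.

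USPs form the largest family of human deubiquitinases. They are cysteine proteases that cut ubiquitin from proteins or from chains, and so compete with the ligases that mark proteins for the proteasome, for endosomal sorting or for signalling. Some work at the proteasome itself, where ubiquitin is recovered before a substrate is unfolded, others at histones, DNA lesions, endosomes, mitochondria or the nucleolus, and several depend on a partner protein for activity.

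Gene counts per library summed to between 5154533 and 6943164. The hepatocyte genes ALB, AFP, APOA1, APOB, TTR, FGB, SERPINA1 and HNF4A were counted in all 24 libraries (ALB between 1561 and 3530 CPM, which is the read count relative to the scaled total of its library), whereas CD14, COL3A1 and PDGFRB reached no more than 2.32, 0.393 and 0.681 CPM. Mitochondrially encoded genes took 21.5% ± 1.32 of the counts in DMSO, 21.9% ± 1.60 with ISRIB and 20.5% ± 1.66 with nelfinavir, but 33.8% ± 1.19 with bortezomib, 27.2% ± 2.26 with bortezomib-nelfinavir and 36.1% ± 3.13 with bortezomib-ISRIB (SD, n = 4 each). CPM are scaled with TMM factors, which hold the bulk of genes level. These ran from 1.16 to 1.24 in the libraries without bortezomib and from 0.786 to 0.869 in those with it. All fold changes are therefore relative to the typical gene, and with library totals alone the median gene fell by 0.50 on the log2 scale between DMSO and bortezomib. With the mitochondrially encoded genes removed before scaling, 24 members were called higher and 4 lower with bortezomib against DMSO, beside 25 and 4 with them. Each library was made from the same amount of total RNA, so neither cell number nor RNA per cell can be read from these counts.

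The bortezomib-nelfinavir libraries fell into pairs. The chi-square per degree of freedom of their counts over all genes was 3.99 between replicates 1 and 2 and 7.30 between replicates 3 and 4, but 13.2 to 20.3 across the pairs, and mitochondrially encoded genes took 28.5% and 29.6% of the counts in the first pair and 24.9% and 25.6% in the other. For the USP members, results with these libraries are therefore also given without each pair, an alternative chosen after seeing the data. The bortezomib-ISRIB replicates 3 and 4 were furthest apart of all same-group libraries by this measure, with mitochondrial shares of 32.6% and 40.2%. Each of them was left out in turn.

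The family as a whole shows how much this matters. Summed over the 48 members, the TMM-scaled level was 1890 ± 36.1 CPM in DMSO, 1836 ± 39.7 with ISRIB and 1948 ± 67.3 with nelfinavir, and it was 2728 ± 65.4 with bortezomib, 3190 ± 127 with bortezomib-nelfinavir and 2518 ± 61.4 with bortezomib-ISRIB (SD, n = 4 each). Without the TMM factors, the same sum was 2284 ± 82.7 CPM in DMSO, 2335 ± 72.5 with bortezomib, 2663 ± 118 with bortezomib-nelfinavir and 2064 ± 116 with bortezomib-ISRIB. On the second scale the DMSO and bortezomib libraries overlapped. Results are therefore given on the TMM scale, and the members whose calls with bortezomib against DMSO also held with library totals alone are named below.

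**Figure D1:**
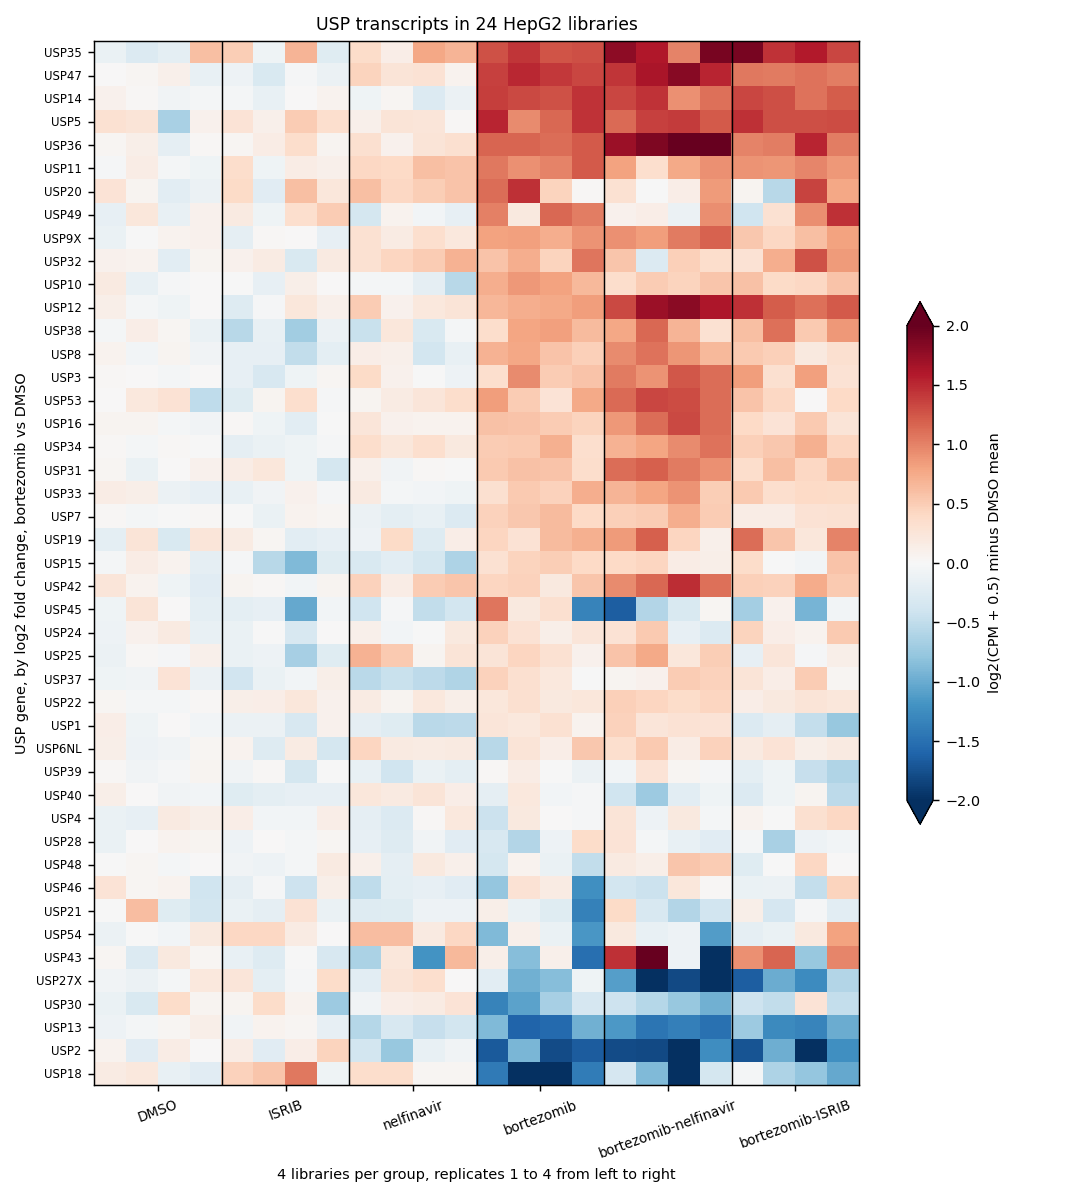
Level of the 45 tested USP transcripts in each of the 24 libraries, as log2(CPM + 0.5) minus the mean of the DMSO libraries, with rows ordered by the change with bortezomib. Most rows are red in the 12 libraries with bortezomib, and the bottom rows (USP2, USP13, USP18, USP27X and USP30) are blue there, whereas the ISRIB block is close to the DMSO block. Colours are cut at 2 log2 units.

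In untreated cells the family spanned a wide range. With DMSO, 4 of the 45 tested members averaged over 100 CPM, 29 lay between 10 and 100 CPM and 12 lay below 10 CPM. USP7, the regulator of p53 and its ligase MDM2, averaged 174.6 ± 3.44 CPM, USP34 174.3 ± 4.10 CPM and USP22, the deubiquitinase of the SAGA coactivator, 171 ± 5.23 CPM (SD, n = 4 each), so these 3 did not differ beyond their spread. USP1, which acts on FANCD2 and PCNA, followed at 121 ± 8.44 CPM. Over the 6 groups on the TMM scale, 22 of the 45 members had their highest mean with bortezomib-nelfinavir and 7 with bortezomib alone. Bortezomib-ISRIB had 6, DMSO 4, ISRIB 3 and nelfinavir 3. The same count was not made over all genes, so it is not read as a trait of the family.

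The first comparison asks what proteasome inhibition does to these transcripts. With bortezomib against DMSO, 25 of the 45 tested members rose and 4 fell (edgeR's quasi-likelihood test, Benjamini-Hochberg adjusted p under 0.05). Of all genes tested, 53.4% were called, 27.6% as higher and 25.8% as lower, against 55.6% and 8.89% of the members. The members' median log2 fold change was 0.41, beside 0.00 over all genes. Changes were of moderate size, since 6 called members passed 2-fold upward and 3 downward. These were 13.3% and 6.67% of the members, beside 10.3% and 12.2% of all genes called and past 2-fold. The libraries of the groups did not overlap for 25 members, 55.6% beside 50.1% of all genes. With library totals alone, 8 members were called higher and 15 lower. Of all genes called on that scale, 19.2% were higher. Of the 25 members that rose with TMM, USP5, USP9X, USP10, USP11, USP14, USP35, USP36 and USP47 were still called higher on that scale, and USP22 was called lower. The other 16 were not called there (USP3, USP7, USP8, USP12, USP15, USP16, USP19, USP20, USP31, USP32, USP33, USP34, USP38, USP42, USP49 and USP53). The 4 that fell, USP2, USP13, USP18 and USP30, fell on both scales.

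Bortezomib was also present in the nelfinavir and ISRIB backgrounds, and these comparisons share no library with the first. Bortezomib-nelfinavir against nelfinavir had 25 members higher and 7 lower (57.1% of all genes called, 28.7% and 28.4% by direction), and bortezomib-ISRIB against ISRIB had 23 higher and 5 lower (54.7% of all genes called, 29.1% and 25.6% by direction). Called and more than 2-fold up or down were 8 and 3 members on nelfinavir (10.5% and 14.4% of all genes) and 7 and 4 on ISRIB (11.5% and 11.7% of all genes). USP43 passed 2-fold upward in both (1.20 and 1.085) without a call. The calls on nelfinavir of USP19 and USP39 were lost without bortezomib-nelfinavir replicates 1 and 2, and those of USP18, USP30, USP39, USP48 and USP54 without replicates 3 and 4 (adjusted p up to 0.774). The groups were apart for 29 members on nelfinavir (49.9% of all genes) and for 24 on ISRIB (48.1% of all genes). In all 3 comparisons 19 members were higher, 42.2% of the family beside 17.3% of all genes, namely USP3, USP5, USP7, USP8, USP9X, USP10, USP12, USP14, USP15, USP16, USP19, USP31, USP33, USP34, USP35, USP36, USP38, USP42 and USP47. USP2, USP13 and USP18 were lower in all 3, 6.67% of the family beside 14.9% of all genes. Under both scalings and in all 3 comparisons, USP5, USP14, USP35, USP36 and USP47 were higher and USP2, USP13 and USP18 were lower (11.1% and 6.67% of the members beside 5.65% and 14.9% of all genes).

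**Figure D2:**
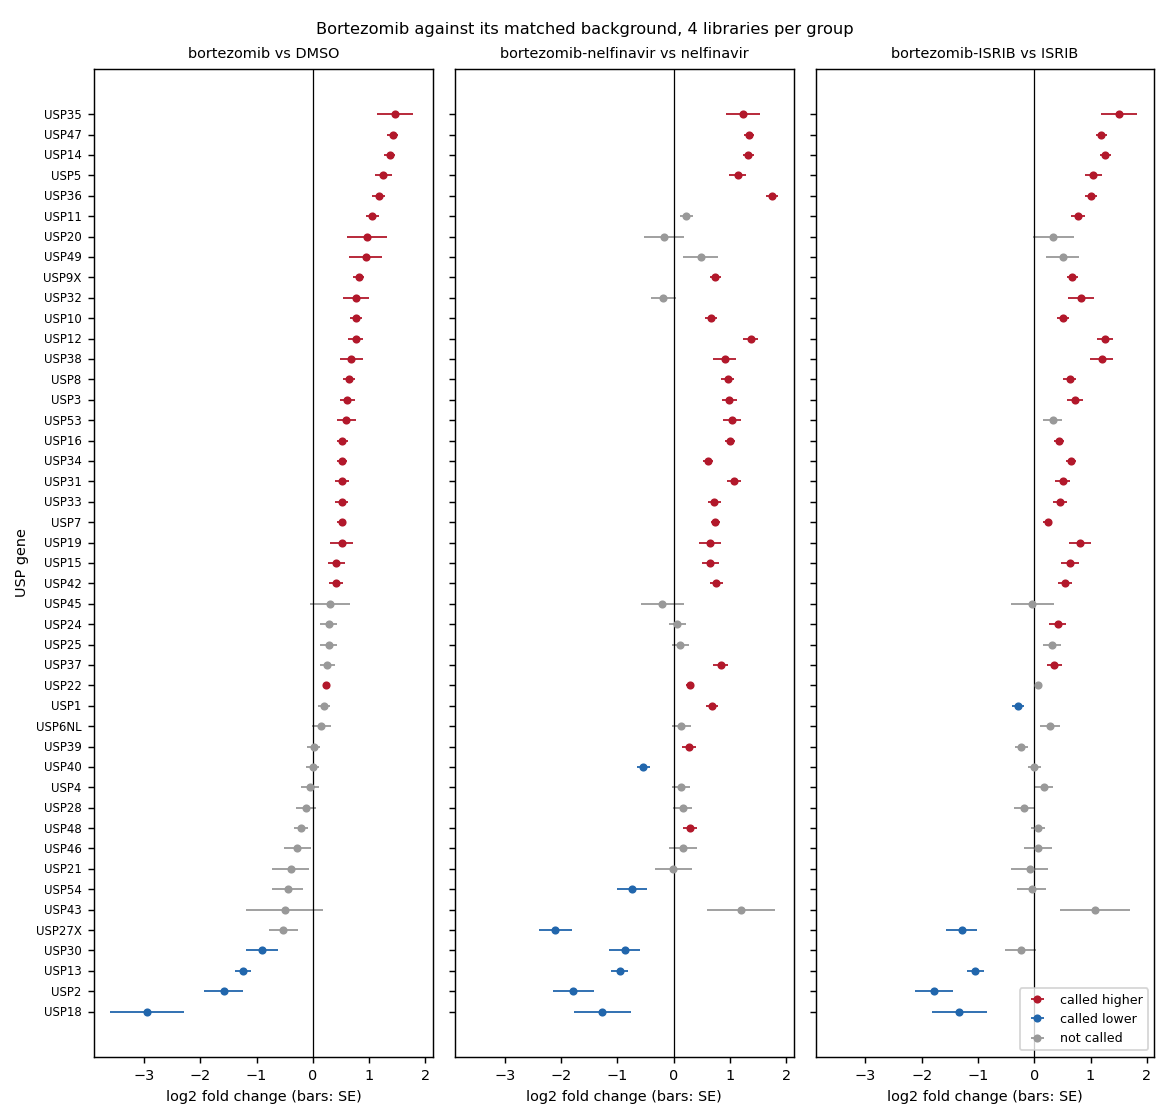
Log2 fold change with its SE for the 45 tested USP transcripts in the 3 comparisons of bortezomib with its matched background (4 libraries per group, TMM scaling), in red where called higher, blue where called lower and grey where not called. The 19 members higher in all 3 lie in the upper part of the column and USP2, USP13 and USP18 at its foot. With library totals alone the points move left by about the median shift, and only USP5, USP14, USP35, USP36 and USP47 keep a call as higher in all 3.

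Windows of 250 bases upstream of the start of the canonical transcript (GRCh37, GENCODE) were available for 44 of the 45 tested members, USP27X being without a gene model here. They are shown for USP14 and USP13, which held a match to an antioxidant-response-type element (TGACNNNGC, either strand) and moved in opposite directions, for USP5, the paralog of USP13, and for USP47, which had the smallest p of the family against DMSO. The match is in capitals, and USP5 and USP47 held none. Each is written 5′ to 3′ on the strand of the gene.
USP14, chr18:158307-158556, plus strand: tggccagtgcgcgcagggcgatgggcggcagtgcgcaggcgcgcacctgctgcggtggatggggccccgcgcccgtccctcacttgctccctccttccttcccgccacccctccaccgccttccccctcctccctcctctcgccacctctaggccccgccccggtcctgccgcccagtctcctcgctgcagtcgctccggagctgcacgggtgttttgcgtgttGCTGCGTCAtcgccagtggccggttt
USP13, chr3:179370578-179370827, plus strand: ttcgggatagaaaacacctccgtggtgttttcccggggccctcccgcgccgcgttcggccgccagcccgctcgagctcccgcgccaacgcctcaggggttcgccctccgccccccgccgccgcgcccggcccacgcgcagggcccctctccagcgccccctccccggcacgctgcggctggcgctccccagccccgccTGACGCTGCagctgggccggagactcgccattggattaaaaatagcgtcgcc
USP5, chr12:6961064-6961313, plus strand: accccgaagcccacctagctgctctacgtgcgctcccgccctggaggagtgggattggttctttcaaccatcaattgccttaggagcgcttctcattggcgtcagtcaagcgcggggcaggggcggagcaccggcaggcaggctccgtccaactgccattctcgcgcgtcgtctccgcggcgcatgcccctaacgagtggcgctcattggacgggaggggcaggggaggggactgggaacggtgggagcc
USP47, chr11:11863269-11863518, plus strand: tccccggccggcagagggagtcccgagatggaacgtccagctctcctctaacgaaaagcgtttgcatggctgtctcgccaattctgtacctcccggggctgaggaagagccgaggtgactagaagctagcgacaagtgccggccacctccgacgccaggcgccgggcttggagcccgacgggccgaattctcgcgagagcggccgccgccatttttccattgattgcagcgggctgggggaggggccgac
In USP14 the match begins 26 bases before the transcript start and in USP13 52 bases before it. Among the 44 windows, 3 held such a match (USP13, USP14 and USP38), 6.82% beside 12.2% of the windows of 12345 tested genes. A heat-shock-type element (GAANNTTC) was found in 1 member, USP39, 2.27% beside 3.94% of all windows. The composite C/EBP-ATF element (TGATGNAAT) was in none of the members and in 0.356% of all windows. The member windows were GC-rich, with a median of 70.6% beside 65.6% over all windows. These counts describe letters in a short window and say nothing of what binds there.

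Of the members that work at the proteasome or on free chains, 2 of 3 rose with bortezomib and 1 fell, under both scalings. Beside this, 27.6% of all genes tested were called higher and 25.8% lower with TMM. Of all genes called with library totals alone, 19.2% were higher. Counts on that scale in the groups below can be set against this share only among the members called. The share of all genes tested that was called on that scale is not given here. Groups of so few members are described member by member. USP14 docks on the proteasome's regulatory particle and trims chains from arriving substrates. It was at 87.2, 82.9, 77.6 and 79.5 CPM in the DMSO libraries and at 214, 205, 199 and 224 CPM with bortezomib. The nelfinavir libraries held 76.7, 84.3, 67.3 and 75.2 CPM and the bortezomib-nelfinavir libraries 207, 222, 154 and 176 CPM. All libraries with bortezomib lay above all without it, ISRIB included, where the values were 79.8, 73.4, 82.6 and 85.4 CPM without and 207, 199.5, 175 and 191 CPM with bortezomib. Bortezomib changed it on the log2 scale by 1.36 (adjusted p = 1.07e-13, SE = 0.097) against DMSO, 1.32 (adjusted p = 2.39e-13, SE = 0.097) on nelfinavir and 1.26 (adjusted p = 7.22e-13, SE = 0.097) on ISRIB. With library totals alone it was 0.86, 0.81 and 0.72, still called in each.

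USP5, known as isopeptidase T, takes apart unanchored ubiquitin chains. Its 4 DMSO libraries read 24.4, 23.7, 12.3 and 20.9 CPM and the bortezomib libraries 57.3, 38.4, 44.3 and 54.6 CPM. In the bortezomib-nelfinavir libraries it stood at 43.5, 51.5, 52.6 and 46.7 CPM and in the bortezomib-ISRIB libraries at 55.2, 49, 49 and 49.4 CPM. Every library with bortezomib was above every library without it. On the log2 scale the increase was 1.25 (adjusted p = 2.21e-08, SE = 0.15) against DMSO, and 1.14 and 1.05 on nelfinavir and ISRIB.

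USP13 is the closest paralog of USP5 and takes part in degradation of proteins from the endoplasmic reticulum. It moved the other way, from 44.2, 46, 48.7 and 51.3 CPM in DMSO to 25.4, 15.3, 15.8 and 24.2 CPM with bortezomib. With bortezomib-nelfinavir it was at 21.1, 17, 18.1 and 16.5 CPM and with bortezomib-ISRIB at 28.5, 19.3, 18.7 and 23.7 CPM. All 12 libraries with bortezomib were below all 12 without it. Its log2 fold change against DMSO was -1.24 (adjusted p = 1.26e-08, SE = 0.15), with -0.95 on nelfinavir and -1.05 on ISRIB. USP5 and USP13 thus changed in opposite directions in each of the 3 comparisons and under both scalings, although the difference between the genes was not itself tested.

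**Figure D3:**
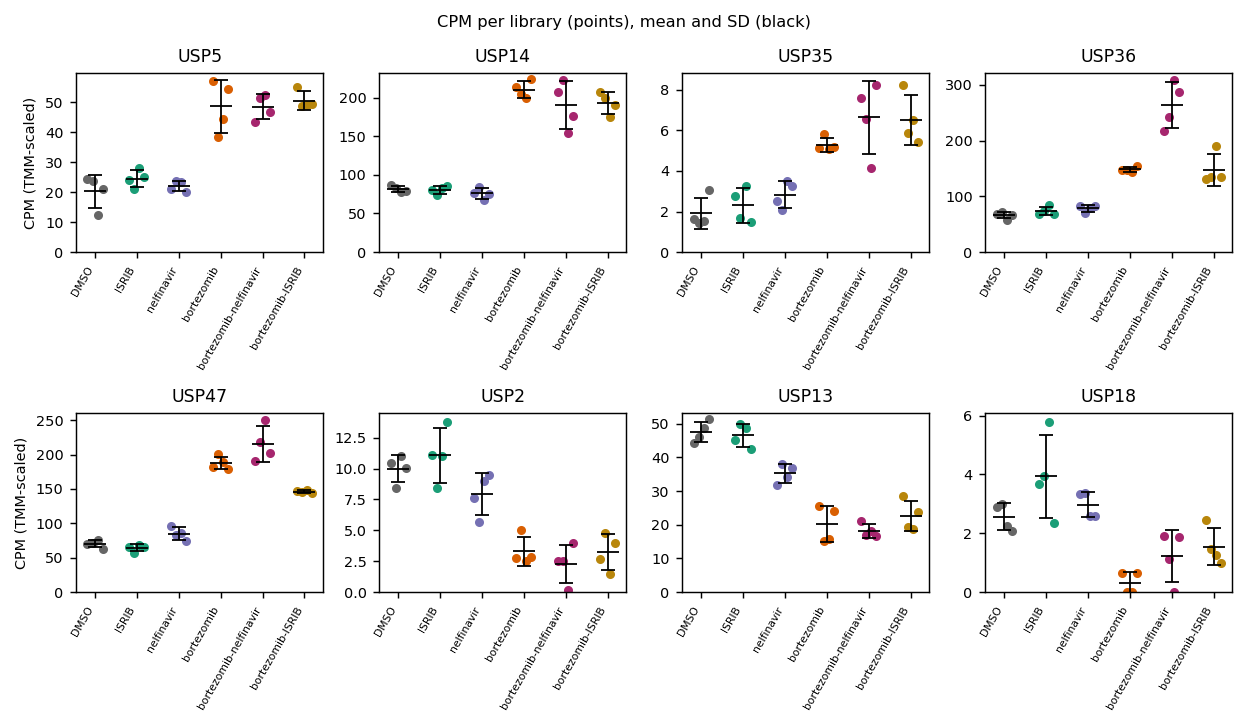
CPM (TMM-scaled) in each library for the 8 USP transcripts called in the same direction in all 3 bortezomib comparisons and under both scalings, with group mean and SD in black (n = 4). For USP5, USP14, USP36 and USP47 the 3 groups with bortezomib lie above the 3 without it, for USP2 and USP13 they lie below, and USP18 was near 0 with bortezomib alone.

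Transcripts of the signalling group rose in 4 of 5 cases, beside 27.6% of all genes (1 higher and 1 lower with library totals alone). USP47, the closest relative of USP7 and a deubiquitinase of DNA polymerase β and β-catenin, had the smallest p of the family with bortezomib against DMSO. It was at 70.5, 72.1, 75.8 and 63.3 CPM in DMSO, 95.9, 83.7, 86.4 and 73.6 CPM with nelfinavir and 65.5, 56.9, 69 and 64.9 CPM with ISRIB. With bortezomib it reached 183, 200.2, 189 and 179 CPM, with bortezomib-nelfinavir 191, 219, 251 and 203 CPM and with bortezomib-ISRIB 147, 146, 149 and 144 CPM. The lowest library with bortezomib was above the highest without it. Its change was 1.41 (adjusted p = 1.41e-14, SE = 0.093) against DMSO, 1.34 on nelfinavir and 1.19 on ISRIB. USP34, which acts on axin in the Wnt pathway and is among the most abundant members, was at 177, 169, 178 and 173 CPM in DMSO and 249, 249.5, 284 and 219.9 CPM with bortezomib, without overlap. Its log2 fold change was 0.52 (adjusted p = 6.16e-06, SE = 0.088), and 0.02 and not called with library totals alone. USP31 (0.52) and USP15 (0.41) were also called. The call of USP15 was lost when any of 5 of the 8 libraries was left out (adjusted p up to 0.0863) and its fold change was -0.09 with library totals alone. USP4, the paralog of USP15, changed in log2 by -0.05 (adjusted p = 0.812, SE = 0.16). The last 500 bases of USP31 are shared in full with an overlapping gene (ENSG00000260566) and 89 bases of the end of USP4 with C3orf62, so reads there could have been split between them.

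The nucleolar deubiquitinase USP36, which acts on nucleolar proteins and on MYC, rose with bortezomib and further with the addition of nelfinavir. It read 67.7, 71.7, 58.3 and 66.9 CPM in DMSO and 148, 148, 144 and 154 CPM with bortezomib. With bortezomib-nelfinavir it reached 217, 242, 308 and 286 CPM, against 82.6, 69.9, 79.1 and 82.3 CPM with nelfinavir alone. The 4 groups were separate in that order of treatment, except that DMSO and nelfinavir alone overlapped. USP36 changed by 1.17 (adjusted p = 1.98e-10, SE = 0.11) against DMSO and 1.75 (adjusted p = 9.99e-15, SE = 0.11) on nelfinavir (log2), the largest increase of the family in the latter comparison. On ISRIB it was 1.01, from 68.1, 73.3, 84.5 and 68.7 CPM to 131, 135, 191 and 135 CPM. Of the other members of this group, USP42 changed in log2 by 0.41 (adjusted p = 0.00454, SE = 0.12) and lost the call without bortezomib replicate 4 (adjusted p = 0.0552) and USP39 was level at 0.01 (not called).

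USP35 was the least abundant of the members that rose under both scalings. It is a paralog of USP38, and its levels were 1.63, 1.43, 1.54 and 3.06 CPM in DMSO and 5.13, 5.82, 5.07 and 5.18 CPM with bortezomib, counts of 14, 11, 11 and 25 and 24, 30, 24 and 24 reads. Even the highest DMSO library stayed below the lowest bortezomib library. This was a log2 fold change of 1.45 (adjusted p = 0.000292, SE = 0.32), with 1.23 on nelfinavir and 1.50 on ISRIB. USP38 itself had 0.68, 0.91 and 1.20 in the same order.

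In the group of endosome and receptor traffic, 5 of 6 members were called higher with bortezomib and none lower (1 higher with library totals alone). The shares of all genes were 27.6% and 25.8%. USP9X, an X-linked protease known for stabilising MCL1, was at 52.1, 57.1, 60 and 60.6 CPM in DMSO and 101, 101, 95 and 108 CPM with bortezomib. With bortezomib-nelfinavir its values were 108, 102, 118 and 131 CPM and with bortezomib-ISRIB 83.7, 76.6, 87.1 and 101 CPM. The groups with and without bortezomib did not overlap. Its log2 fold change was 0.82 (adjusted p = 1.13e-08, SE = 0.096), and 0.32 and still called with library totals alone, but on ISRIB the call was lost on that scale (0.13). USP8, which sorts receptors at endosomes with the STAM proteins, had 0.63 (adjusted p = 8.17e-06, SE = 0.11) against DMSO and 0.14, not called, with library totals alone. USP33 and its paralog USP20 had 0.51 and 0.96, and USP32 0.76. The call of USP20 was lost without any of 5 of the 8 libraries in turn (adjusted p up to 0.197), and that of USP32 without bortezomib replicate 4 (adjusted p = 0.0527). USP6NL had 0.15 (adjusted p = 0.489, SE = 0.17).

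Among partners of the WD-repeat activator UAF1 and repair factors, 2 of 6 rose (1 higher and 3 lower with library totals alone). That is 33.3%, near the 27.6% of all genes. USP11, the X-linked paralog of USP4 and USP15 with a role in homologous recombination, was at 28.2, 31.6, 27.8 and 26.8 CPM in DMSO and 60.1, 54.1, 57 and 67.2 CPM with bortezomib, about 2-fold apart and without overlap. In log2 terms USP11 changed by 1.06 (adjusted p = 3.46e-09, SE = 0.12), and 0.56 with library totals alone, still called. On ISRIB it was 0.78 (adjusted p = 1.23e-06, SE = 0.12), but on nelfinavir 0.23 (adjusted p = 0.0977, SE = 0.12). USP12, which UAF1 activates, was at 18.2, 16.3, 15.7 and 16.8 CPM in DMSO and 26.7, 27.9, 28.5 and 30.2 CPM with bortezomib. It was higher again with bortezomib-nelfinavir, at 42.5, 56.1, 59.3 and 52.1 CPM, and with bortezomib-ISRIB, at 47, 39.1, 36.6 and 39.7 CPM. The 3 groups with bortezomib were separate from all libraries without it. Its log2 fold changes were 0.76 (adjusted p = 1.65e-05, SE = 0.14), 1.37 (adjusted p = 9.34e-11, SE = 0.13) on nelfinavir and 1.26 (adjusted p = 1.18e-09, SE = 0.13) on ISRIB, and with library totals alone 0.26 (not called), 0.86 and 0.72. The paralog USP46 had -0.27 (adjusted p = 0.368, SE = 0.25), so the pair differed in what was called. USP1 (0.21), USP45 (0.30) and USP48 (-0.21) were not called against DMSO. On nelfinavir USP1 was called higher (0.69), and on ISRIB lower (-0.30), a call lost without ISRIB replicate 4 (adjusted p = 0.101). It was the 1 member with opposed calls in the 3 bortezomib comparisons, beside 318 of the 12685 genes tested.

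The histone and SAGA group had 4 of 6 tested members called higher and none lower with bortezomib, beside 27.6% and 25.8% of all genes. With library totals alone none was higher and 3 were lower. USP16, a histone H2A deubiquitinase, was at 103, 103, 96.4 and 94.2 CPM in DMSO, 148, 147, 141 and 134 CPM with bortezomib and 181, 216, 249 and 216 CPM with bortezomib-nelfinavir. These groups were separate from each other. The log2 fold change was 0.53 (adjusted p = 8.90e-06, SE = 0.09) against DMSO and 1.00 (adjusted p = 2.40e-11, SE = 0.089) on nelfinavir, and with library totals alone 0.03 (not called) and 0.49 (called). USP3 had 0.61 and USP49, which acts on histone H2B, 0.94. USP22 had 0.24 (adjusted p = 0.00415, SE = 0.07), a change of 1.18-fold that became -0.26 and was called lower with library totals alone, so its direction rests on the scaling. The call also failed without bortezomib replicate 2 or without DMSO replicate 2 (adjusted p up to 0.0929). USP21 had -0.40 (adjusted p = 0.318, SE = 0.33).

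USP27X uses the same partners as USP22 and stood out by its fall. It was at 8.36, 8.07, 8.53 and 10.3 CPM in DMSO, 7.52, 10.6, 11.2 and 8.82 CPM with nelfinavir and 10.5, 7.61, 8.61 and 11.5 CPM with ISRIB. With bortezomib it was at 7.48, 4.26, 4.64 and 8.21 CPM, with bortezomib-ISRIB at 2.45, 4.19, 3.37 and 5.67 CPM and with bortezomib-nelfinavir at 3.8, 1.59, 2.16 and 1.31 CPM. The bortezomib libraries reached into the range without it, whereas the co-treated libraries all lay below it. Its log2 fold change was -0.52 (adjusted p = 0.091, SE = 0.26) against DMSO, -2.10 (adjusted p = 3.85e-07, SE = 0.30) on nelfinavir and -1.29 (adjusted p = 0.000205, SE = 0.28) on ISRIB. The antisense gene USP27X-AS1 was at 1.41 ± 0.66 CPM in DMSO, 1.53 ± 0.833 CPM with bortezomib and 0.246 ± 0.290 CPM with bortezomib-nelfinavir (SD, n = 4 each). Since the strand setting of the counting is not given in the sources used here, reads of a gene and its antisense partner cannot be told apart.

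In the p53 and MDM2 group, 2 of 5 rose and 1 fell, beside 27.6% and 25.8% of all genes (1 higher and 2 lower with library totals alone). USP7 was at 178, 170.3, 173 and 177 CPM in DMSO and 239.6, 254, 271 and 229 CPM with bortezomib, with no overlap, a log2 fold change of 0.51 (adjusted p = 1.57e-06, SE = 0.079). With library totals alone this was 0.01 and not called, and on ISRIB the sign depended on the scaling (0.24 with TMM, -0.30 with totals, called in each). The TMM call of USP7 on ISRIB was lost without any of 5 of the 8 libraries in turn (adjusted p up to 0.145). USP10, which stabilises p53 and binds the stress granule proteins G3BP1 and G3BP2, was at 68.4, 54.2, 59.3 and 60.8 CPM and 100.3, 110.5, 106 and 94.6 CPM, a log2 fold change of 0.76 (adjusted p = 1.86e-07, SE = 0.10) that was still called with totals alone (0.26). USP24 and USP28 had 0.28 and -0.13 and were not called, like USP25, the paralog of USP28, at 0.28.

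USP2, known as a clock-regulated protease with MDM2 and cyclin D1 among its substrates, was the member of that group that fell. It went from 10.4, 8.46, 11.1 and 10 CPM in DMSO to 2.78, 5.04, 2.53 and 2.81 CPM with bortezomib. With bortezomib-nelfinavir it was at 2.54, 2.5, 0.196 and 3.94 CPM and with bortezomib-ISRIB at 2.67, 4.82, 1.47 and 3.95 CPM. Without bortezomib its lowest value was in a nelfinavir library, above every library with bortezomib. USP2 changed on the log2 scale by -1.59 (adjusted p = 0.000181, SE = 0.34) against DMSO, -1.78 on nelfinavir and -1.78 on ISRIB. The antisense gene USP2-AS1 moved the other way, from 2.05 ± 0.648 CPM in DMSO to 5.11 ± 1.94 CPM with bortezomib (SD, n = 4 each), with no test made of it here.

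USP18 removes the ubiquitin-like protein ISG15 and is induced by interferon. Few reads covered it, with counts of 25, 23, 16 and 17 in DMSO and 3, 0, 0 and 3 with bortezomib, or 2.9, 2.99, 2.24 and 2.08 CPM and 0.641, 0, 0 and 0.648 CPM. In the bortezomib-nelfinavir libraries it was counted 9, 5, 0 and 10 times and in the bortezomib-ISRIB libraries 11, 7, 6 and 4 times. The bortezomib libraries lay below every DMSO library. Its log2 fold change was -2.95 (adjusted p = 0.000323, SE = 0.66), the largest of the family, and rests on 6 reads in the treated group. On nelfinavir it was -1.26 (adjusted p = 0.0348, SE = 0.51), and that call was lost without any of 4 of the 8 libraries in turn (adjusted p up to 0.118). On ISRIB it was -1.33 (adjusted p = 0.0223, SE = 0.49), lost without 1 of the 8 (adjusted p = 0.0882). The SE quoted come from the model of all 24 libraries and cover spread between replicates beside counting error. They do not cover the choice of scaling.

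Of the membrane-anchored members, USP30, which sits on the outer mitochondrial membrane and opposes mitophagy, fell with bortezomib, from 6.04, 5.33, 8.81 and 6.98 CPM to 2.35, 2.91, 4.01 and 5.18 CPM without overlap. The log2 fold change was -0.91 (adjusted p = 0.00818, SE = 0.29) against DMSO and -0.87 (adjusted p = 0.00884, SE = 0.28) on nelfinavir, whereas on ISRIB it was -0.24 (adjusted p = 0.479, SE = 0.27) and not called. USP19, anchored in the endoplasmic reticulum, had 0.51 (adjusted p = 0.0338, SE = 0.20), a call that failed without any of 5 of the 8 libraries in turn (adjusted p up to 0.138). USP54 was called lower with bortezomib only on the nelfinavir background (-0.74 (adjusted p = 0.0186, SE = 0.27)), from 12.4, 12.4, 8.95 and 10.6 CPM to 9.09, 7.04, 7.27 and 3.38 CPM. The groups overlapped, and the call was lost when 1 library was left out (adjusted p = 0.0966). Its paralog USP53 had 1.04 there and 0.60 against DMSO, both called higher. USP40 fell on nelfinavir (-0.54 (adjusted p = 0.000184, SE = 0.12)), from 90, 86.4, 91.7 and 83.9 CPM to 57.9, 46.1, 65.8 and 72.4 CPM, and stayed level against DMSO (-0.00). USP4, USP6NL, USP21, USP25, USP28, USP43, USP45 and USP46 were called in none of the 3 comparisons, 17.8% of the family beside 22.5% of all genes.

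**Figure D4:**
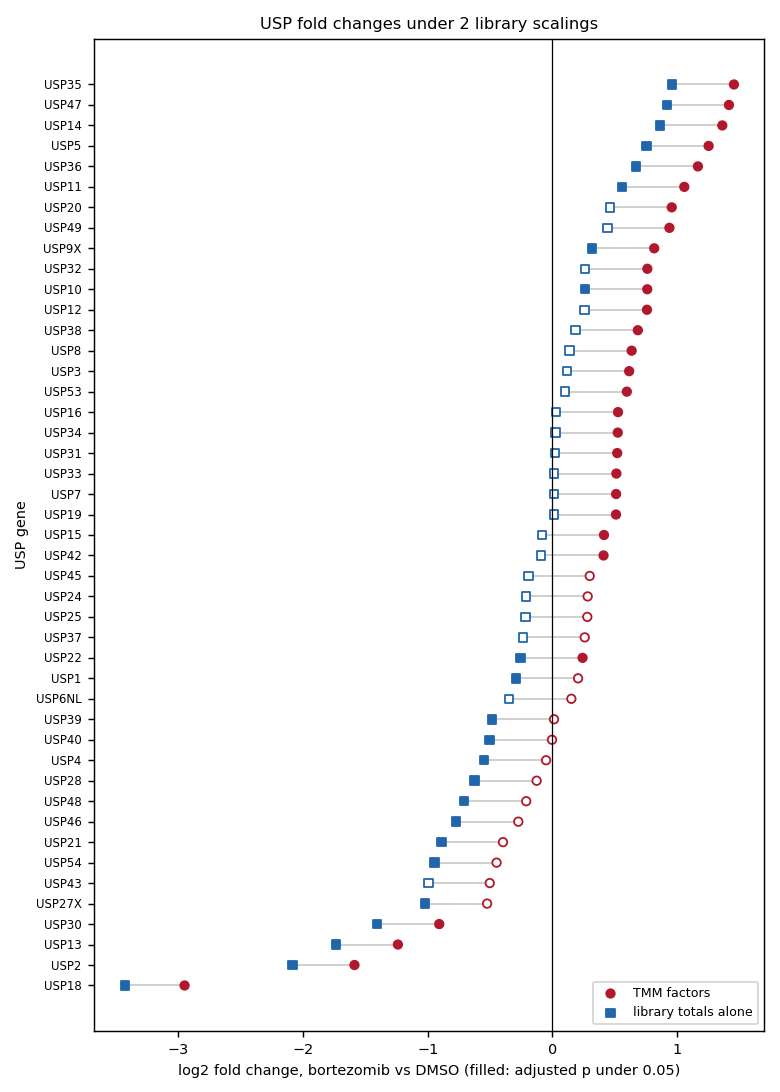
Log2 fold change of the 45 tested USP transcripts with bortezomib against DMSO, with TMM factors (red circles) and with library totals alone (blue squares), filled where the adjusted p was under 0.05. All members move left by about the same amount. Among those called higher with TMM, 8 stay called higher, 16 lose the call and USP22 turns to lower, while the 4 called lower stay lower.

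The second question was what nelfinavir does on its own. Against DMSO, 4 members rose and 3 fell, 8.89% and 6.67% of the family, with 19.2% of all genes called, 10.4% higher and 8.84% lower. No member passed 2-fold, whereas 1.99% of all genes were called and did so upward and 1.42% downward. The groups did not overlap for 15 members (29.6% of all genes). USP11 rose from 28.2, 31.6, 27.8 and 26.8 CPM to 38.3, 37.8, 43.6 and 42.8 CPM, with no overlap, a log2 fold change of 0.50 (adjusted p = 0.00173, SE = 0.12). USP37, which deubiquitinates cyclin A, fell from 33.7, 34, 43.1 and 33.1 CPM to 24.5, 26.1, 24.8 and 23.4 CPM, likewise without overlap (-0.54 (adjusted p = 0.00362, SE = 0.14)). USP1 fell from 133, 114, 122 and 116 CPM to 107, 102, 83 and 84.1 CPM (-0.37 (adjusted p = 0.0119, SE = 0.11)), and USP13 from 44.2, 46, 48.7 and 51.3 CPM to 31.8, 38, 34.2 and 36.9 CPM (-0.43 (adjusted p = 0.022, SE = 0.14)). USP42 rose to 60.6, 48.8, 62.8 and 65.1 CPM from 51.9, 46.4, 41.5 and 37.4 CPM (0.42 (adjusted p = 0.00941, SE = 0.12)). USP34 and USP47 were called higher at 0.27 and 0.27. The calls of USP11 and USP37 held when each of the 8 libraries was left out, and the other 5 were lost at least once (adjusted p up to 0.168, for USP47). ISRIB alone gave no called member, and 0% of all genes was called. In that comparison 3 members had an unadjusted p under 0.05 (6.67%, beside 5.54% of all genes), 3 did not overlap between the groups (8.01% of all genes), and DESeq2 called none either.

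The third question was how each drug alters the family once bortezomib is present. Adding nelfinavir to bortezomib raised 10 members and lowered 4, 31.1% of the family, with 28.9% of all genes called, 15.6% higher and 13.4% lower. Without replicates 1 and 2 of bortezomib-nelfinavir 11 were higher and 3 lower, and without replicates 3 and 4 there were 9 and 4. USP36 rose further, from 148, 148, 144 and 154 CPM to 217, 242, 308 and 286 CPM (0.83 (adjusted p = 7.68e-07, SE = 0.11)). USP12 went from 26.7, 27.9, 28.5 and 30.2 CPM to 42.5, 56.1, 59.3 and 52.1 CPM (0.89 (adjusted p = 3.54e-06, SE = 0.13)), and USP16 by 0.59 (adjusted p = 5.21e-06, SE = 0.09) between the values given above. All 3 separated the groups. USP42 rose from 59.6, 60.5, 50.7 and 64.8 CPM to 85.4, 98.3, 123 and 95.1 CPM (0.77 (adjusted p = 7.38e-06, SE = 0.12)). USP48, which acts on histone H2A and on RELA, rose from 63.1, 85.1, 73.7 and 57 CPM to 91.9, 87.2, 119 and 114 CPM (0.57 (adjusted p = 0.001, SE = 0.13)), and USP31 from 27.6, 28.9, 28.5 and 24.4 CPM to 42, 44.3, 39.7 and 36.2 CPM (0.57 (adjusted p = 0.00109, SE = 0.13)). In these too the lowest co-treated library exceeded the highest with bortezomib alone. USP53 (0.63), USP3 (0.48), USP34 (0.36) and USP22 (0.18) were also called higher, the last with the call lost under 6 of the 9 other settings (adjusted p up to 0.212). USP12, USP16, USP31, USP36, USP42 and USP53 were called without either pair of co-treated libraries. For USP36 the log2 fold change was 1.05 without replicates 1 and 2 and 0.64 without replicates 3 and 4. USP48, USP34 and USP3 followed the pairs, at 0.79, 0.54 and 0.63 without replicates 1 and 2, and at 0.37 (adjusted p = 0.0651), 0.23 (adjusted p = 0.0911) and 0.38 (adjusted p = 0.105), not called, without replicates 3 and 4.

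USP27X fell with the addition of nelfinavir, from counts of 35, 22, 22 and 38 to 18, 7, 11 and 7, a log2 fold change of -1.47 (adjusted p = 0.000754, SE = 0.32). No other called member passed 2-fold in this comparison. Of all genes, 3.12% were called and more than 2-fold higher and 3.73% called and more than 2-fold lower. USP18 (1.90, adjusted p = 0.0566) and USP43 (1.60, adjusted p = 0.0664) passed 2-fold upward without a call. The groups were apart for 10 members, 22.2% beside 21.5% of all genes. USP10 (from 100.3, 110.5, 106 and 94.6 CPM to 77.3, 86, 82.1 and 88.7 CPM), USP11 and USP40 fell by less, with log2 fold changes of -0.30, -0.33 and -0.33. USP11 went from 60.1, 54.1, 57 and 67.2 CPM to 50.3, 36.3, 48.7 and 54.4 CPM and USP40 from 67.8, 88.4, 73.9 and 75.4 CPM to 57.9, 46.1, 65.8 and 72.4 CPM, so both overlapped. These 3 calls rest on the full set of libraries, since each was lost in 6 or 7 of the 8 fits that left a library out (adjusted p up to 0.159 for USP10, 0.289 for USP11 and 0.282 for USP40). Without co-treated replicates 1 and 2, none of the 3 was called, with -0.22 for USP10, -0.16 for USP11 and -0.096 for USP40, whereas without replicates 3 and 4 USP11 (-0.45) and USP40 (-0.54) were. USP27X was called without either pair (-1.76 and -1.15).

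Adding ISRIB to bortezomib moved fewer members, 2 up and 3 down, 11.1% of the family where 12.2% of all genes were called (6.91% higher, 5.34% lower). USP1 fell from 143, 139.6, 150.1 and 127 CPM to 99.9, 107, 87.3 and 71.8 CPM, below every bortezomib library (-0.61 (adjusted p = 0.00018, SE = 0.11)). USP47 fell from 183, 200.2, 189 and 179 CPM to 147, 146, 149 and 144 CPM (-0.36 (adjusted p = 0.00741, SE = 0.092)), which left it above all libraries without bortezomib. USP7 went from 239.6, 254, 271 and 229 CPM to 194, 194, 213 and 216 CPM (-0.28 (adjusted p = 0.0148, SE = 0.079)). USP12 rose from 26.7, 27.9, 28.5 and 30.2 CPM to 47, 39.1, 36.6 and 39.7 CPM (0.52 (adjusted p = 0.00783, SE = 0.13)). USP18 rose from 6 reads in the 4 bortezomib libraries to 28 in the 4 with ISRIB (2.23 (adjusted p = 0.0421, SE = 0.74)). It was the called member past 2-fold here (1.47% of all genes called and higher, 0.686% called and lower). USP43 was past 2-fold upward too (1.35, adjusted p = 0.197) but not called. The groups were apart for 6 members (12.5% of all genes). The calls of USP7 and USP18 were each lost in 4 of the 8 fits without a library (adjusted p up to 0.0753 and 0.125).

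Whether nelfinavir acted differently in the presence of bortezomib was tested by the interaction, the change on adding it to bortezomib minus the change on adding it to DMSO. It was called for 11 members, 7 upward and 4 downward, with 19.7% of all genes called (9.74% and 10% by direction). USP11 rose with nelfinavir alone (0.50) and fell when it was added to bortezomib (-0.33), an interaction of -0.83 (adjusted p = 0.000413, SE = 0.17). USP1 fell with nelfinavir alone (-0.37) and had 0.12 on top of bortezomib, an interaction of 0.48 (adjusted p = 0.0208, SE = 0.15). USP37 was alike, with -0.54 and 0.03, an interaction of 0.58 (adjusted p = 0.0316, SE = 0.19). For USP36 (0.58), USP12 (0.61), USP16 (0.47), USP31 (0.56) and USP48 (0.51), the transcript was not called with nelfinavir alone and was called higher when nelfinavir was added to bortezomib. USP27X had -1.57 (adjusted p = 0.005, SE = 0.40), USP40 -0.53 and USP32 -0.94. Those of USP11, USP12, USP16, USP27X and USP36 held with each of the 16 libraries left out in turn, and the other 6 were lost at least once (adjusted p up to 0.113, for USP32). Without the co-treated replicates 3 and 4 together, however, USP12 (0.53, adjusted p = 0.072), USP16 (0.37, adjusted p = 0.0504), USP36 (0.39, adjusted p = 0.0847), USP37 (0.36) and USP48 (0.31) were no longer called, and without replicates 1 and 2 USP31 (0.51), USP32 (-0.78) and USP40 (-0.30) were not. The interactions of USP1, USP11 and USP27X were called without either pair. For ISRIB the interaction was called for USP1 only, at -0.50 (adjusted p = 0.0491, SE = 0.15) where 4.82% of all genes were called and 1.89% downward, and it was lost in 11 of the 16 fits without a library (adjusted p up to 0.125).

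**Figure D5:**
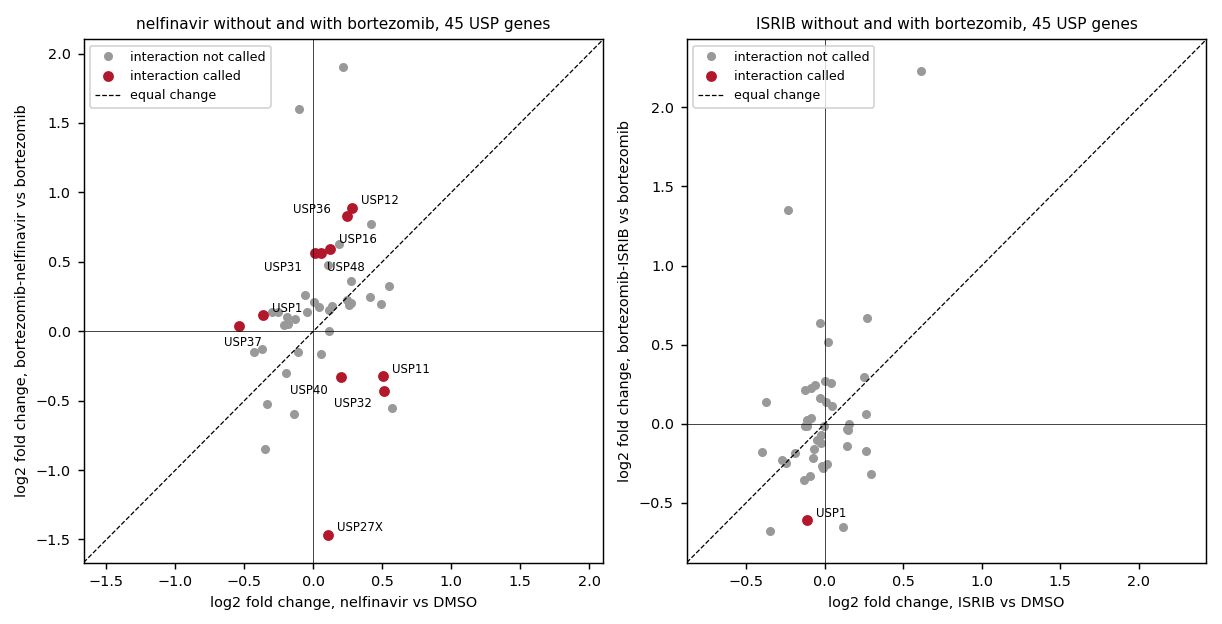
Log2 fold change of each tested USP transcript on adding nelfinavir (left) or ISRIB (right), without bortezomib on the x axis and with it on the y axis, in red where the interaction was called. USP12, USP16, USP31, USP36 and USP48 lie above the line of equal change and USP11, USP27X, USP32 and USP40 below it on the left, and USP1 alone is marked on the right. The comparisons on the 2 axes of a panel share no library.

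Genes of proteins that bind or activate USPs also changed. Of 16 cofactors tested, 9 were higher and 1 lower with bortezomib against DMSO, 56.2% and 6.25% beside 27.6% and 25.8% of all genes, with a median log2 fold change of 0.36. On library totals 3 were higher and 5 lower, where 19.2% of all genes called were higher. WDR48, which encodes UAF1, had 1.27, the proteasome docking subunit of USP14, PSMD2, had 1.46, and ADRM1, the proteasome receptor of UCHL5, 1.37, all called higher under both scalings. Adding nelfinavir to bortezomib raised 5 and lowered 1, 31.2% and 6.25% beside 15.6% and 13.4% of all genes. In the interaction with nelfinavir 6 were called upward (37.5%, beside 9.74% of all genes) and none downward (10% of all genes), among them G3BP1 (0.66) and G3BP2 (0.74), the partners of USP10, GMPS (0.68), the partner of USP7, and STAM (1.04), that of USP8. For the cofactors, results with nelfinavir added to bortezomib are not given without each pair of bortezomib-nelfinavir libraries. The SAGA subunit ENY2, shared by USP22 and USP27X, was the cofactor that fell with bortezomib, at -0.33.

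Of 33 deubiquitinases of other families or outside the name rule, 14 were higher and 5 lower with bortezomib against DMSO, 42.4% and 15.2% beside 27.6% and 25.8% of all genes, with a median log2 fold change of 0.36. On library totals 7 were higher and 12 lower, where 19.2% of all genes called were higher. PSMD14, the metalloprotease of the proteasome lid, had 1.86, while UCHL5, which also binds the proteasome, had -0.39 and was called lower. CYLD, a USP-fold enzyme outside the name rule, had 1.12 and USPL1, which acts on SUMO, 1.22. OTUD5 (1.62) and OTUD7B (1.37) rose, and TNFAIP3 (-1.26), FAM63A (-2.50), FAM63B (-1.05) and BRCC3 (-0.91) fell, and all these kept their calls with library totals alone. With nelfinavir alone 4 rose and 4 fell, 12.1% each beside 10.4% and 8.84% of all genes, and with ISRIB none was called, as for all genes. With nelfinavir added to bortezomib 9 rose and 6 fell, 27.3% and 18.2% beside 15.6% and 13.4% of all genes. These counts too are not given without each pair of bortezomib-nelfinavir libraries. With ISRIB added 3 rose and 3 fell, 9.09% each beside 6.91% and 5.34%.

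USP6, USP44 and USP50 did not pass the filter. USP6 had 1 read in all 24 libraries, in a nelfinavir library. USP44 had 1 read in the 12 libraries without bortezomib and 13 in the 12 with it, all of them in co-treated libraries. USP50 had no more than 8 reads in any group. These genes were not tested in the main fit, and no change is read from so few reads. USP43 passed with 0 to 45 reads per library, and its 4 bortezomib-nelfinavir libraries read 6.76, 10.2, 1.96 and 0 CPM against 1.19, 2.58, 0.648 and 3.63 CPM with nelfinavir, a spread in which no difference was called.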

How the data were processed

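RNA from 4 replicate cultures for each of 6 treatments of HepG2 cells was sequenced by the authors as 3′ tags, trimmed with cutadapt 2.8, aligned with STAR to hg19 and counted per Ensembl gene (protein-coding, lincRNA, antisense). The deposited values are raw read counts. Which program counted the reads, with what strand setting, and whether molecular identifiers were used were not given in the sources used here. Reads need therefore not be independent molecules. Depth per library is given with the results.

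Counts were analysed in R 4.3.3 with edgeR 4.0.16. Low genes were removed by filterByExpr at a minimum count of 5 and a minimum total of 25, and the rest scaled by TMM and fitted in 1 quasi-likelihood model of all 24 libraries with a coefficient per group. Tests were 2-sided, with Benjamini-Hochberg adjustment over the 12685 genes tested and calls at an adjusted p under 0.05. The study itself used DESeq2 for its tests. DESeq2 1.42.0 was an alternative here, together with RLE and upper-quartile factors, library totals alone, removal of mitochondrially encoded genes, the default filter of edgeR (10 and 15 counts), no filter, only the groups compared, a replicate block, and each library left out. Fits without each pair of bortezomib-nelfinavir libraries were added after seeing the data. The fit was tested on simulated data with 200 changed genes.

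Members, role lists and motifs were chosen with earlier results of these data known. Libraries are shown for up to 6 called members per direction and comparison with the smallest p, and fold changes for the others and for paralogs. Positions and upstream windows of 250 bases come from GENCODE on GRCh37, read with Python 3.11.15, and near copies of the last 500 bases from BLAST 2.17.0 (at least 80 bases and 97% identity).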

Additional observations from a re-analysis of the deposited data

Results flagged for a closer look

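In groups of 4 libraries, 15 of the 270 group values of the tested members had a library set apart from the other 3 by Dixon's ratio, and chance sets apart about 1 in 20 groups, so this is near the number chance gives. The lone library was the highest for USP33 with nelfinavir (replicate 1, 33 CPM), USP21 with ISRIB (replicate 3, 5.08 CPM), USP37 in DMSO (replicate 3, 43.1 CPM), USP6NL with nelfinavir (replicate 1, 19.5 CPM), USP16 with nelfinavir (replicate 1, 118 CPM), USP35 in DMSO (replicate 4, 3.06 CPM) and USP35 with bortezomib (replicate 2, 5.82 CPM). It was also the highest for USP2 with bortezomib (replicate 2, 5.04 CPM), USP7 with bortezomib-nelfinavir (replicate 3, 290 CPM), and, with bortezomib-ISRIB, for USP5 (replicate 1, 55.2 CPM), USP30 (replicate 3, 8.21 CPM) and USP36 (replicate 3, 191 CPM). It was the lowest for USP28 with bortezomib-ISRIB (replicate 2, 9.63 CPM), USP8 with ISRIB (replicate 3, 70 CPM) and USP32 in DMSO (replicate 3, 5.04 CPM).

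The change on adding nelfinavir differed between cells with and without bortezomib for 11 members by the interaction term of edgeR's model. On the log2 scale the differences were 0.61 for USP12, 0.58 for USP36, 0.58 for USP37, 0.56 for USP31, 0.51 for USP48, 0.48 for USP1 and 0.47 for USP16, and -1.57 for USP27X, -0.94 for USP32, -0.83 for USP11 and -0.53 for USP40. The change on adding ISRIB differed for USP1, by -0.50.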

How the results depend on the processing

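Scaling was the choice that mattered most. With library totals alone, members called higher and lower became 8 and 15 for bortezomib against DMSO, 14 and 13 for bortezomib-nelfinavir against nelfinavir and 7 and 14 for bortezomib-ISRIB against ISRIB, 2 were called higher with nelfinavir and 5 lower with ISRIB added to bortezomib. Of all genes called with bortezomib, 19.2% were then higher against DMSO, 19.6% on nelfinavir and 19.3% on ISRIB. Fold changes that reversed there were, against DMSO, USP42 (-0.090), USP15 (-0.085) and USP22 (-0.26), on nelfinavir, USP48 (-0.21), USP39 (-0.23) and USP22 (-0.22), and on ISRIB, USP24 (-0.13), USP33 (-0.083), USP37 (-0.18), USP7 (-0.30), USP31 (-0.038), USP10 (-0.033) and USP16 (-0.11). The cause of this shift was not tested.

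With no filter, 2 members were higher with nelfinavir and 1 lower with nelfinavir added to bortezomib. With only the groups compared, these were 9 higher and 5 lower, and 2 lower, and 1 was higher with ISRIB added. Leaving out each library in turn gave 1 to 4 higher and 1 to 3 lower with nelfinavir, 1 to 4 lower with nelfinavir added to bortezomib, 1 to 2 higher with ISRIB added, 4 to 8 higher and 2 to 4 lower in the nelfinavir interaction and 0 to 1 lower in the ISRIB interaction. Without bortezomib-nelfinavir replicates 1 and 2 the nelfinavir interaction had 2 members lower, and without replicates 3 and 4 it had 4 higher, and bortezomib-nelfinavir against nelfinavir had 4 lower. These pairs were chosen after seeing the data. The causes were not tested.

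Of 127 called fold changes, 125 kept direction and call with DESeq2, 122 with RLE factors, 117 with upper-quartile factors and 121 without mitochondrially encoded genes. The replicate block kept 126 and changed no count by over 1.5 times, with 25 members higher in bortezomib against DMSO. Same-numbered libraries deviated together (over 0.1) in 21 of 60 pairs, a larger share than the 38 of 180 with other numbers. The median correlations were 0.0134 and -0.00183. Whether equal numbers stand for cultures handled together was not tested, and the main fit did not use the numbers.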
